A study of Mus musculus with 14 samples.

Results

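The SOX genes encode transcription factors that bind DNA through an HMG box, and 8 of them were followed through 14 primary small cell lung cancers of genetically engineered mice: Sox1, Sox2, Sox4, Sox5, Sox6, Sox9, Sox11 and Sox12. They are 8 of 20 SOX-family symbols examined and of 23284 genes in the count files. The 8 were selected on measured values, since the set was named by symbol with the levels of SOX genes in these tumours, and the results of the genotype comparison, already known. It follows no level threshold, because Sox13, which is outside the set, had more counts than Sox9 in 13 of the 14 tumours. The fold changes and p-values given for the 8 genes are therefore descriptions of these tumours and not independent evidence.

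Every tumour was labelled as carrying alterations of Rb1, the retinoblastoma gene, and Trp53, which encodes p53. The RPC tumours (genotype Rb1/Trp53/Crebbp, n = 7) also carried an alteration of Crebbp, a histone acetyltransferase and transcriptional coactivator, and the RP tumours (genotype Rb1/Trp53, n = 7) served as their controls. The comparison asks how RNA levels differ where Crebbp is altered as well. The labels name no Cre driver, strain or age and do not tie each tumour to its own mouse, so a p-value speaks for the spread among these samples, which may be technical in part.

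SOX factors act in groups. SOX1 and SOX2 belong to the SOXB1 group, which maintains neural and other progenitors, and SOX2 also specifies airway epithelium. SOX4, SOX11 and SOX12 form the SOXC group, active in neuronal and mesenchymal progenitors. SOX5 and SOX6 belong to the SOXD group, which lacks a transactivation domain and works together with SOX9 in cartilage. SOX9, of the SOXE group, marks distal progenitors of the developing lung and drives chondrocyte and glial programmes. SOX2 is often highly expressed in small cell lung cancer, a tumour of neuroendocrine character.

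Libraries held 10060969 to 24052799 counts in genes in RPC tumours and 10965714 to 23678648 in RP tumours. Neuroendocrine markers, 13 in number, summed to between 4639 and 6987 CPM in RPC tumours and between 6931 and 12972 CPM in RP tumours. The RPC sums were mostly the lower. With no tumour of another type in the set, these sums check no label. CPM are counts per 1000000 gene counts of a library, scaled by TMM (trimmed mean of M values). RPC tumours 3, 5 and 6 stood apart, with scores of 136.8, 157.1 and 127.8 on the first principal component, against at most 19.98 in any of the other tumours. Their 9 macrophage markers summed to between 5.12 and 8.51 CPM, against 410 to 1973 CPM in the other 11 tumours, and their 7 fibroblast markers to between 4.18 and 126 CPM, against 233 to 865 CPM. Fold changes of the 8 genes, and of some other genes that moved with these tumours, are also given without them. Crebbp itself averaged 64.7 ± 4.23 CPM in RPC tumours and 76.6 ± 13.8 CPM in RP tumours (SD, n = 7 each; edgeR adjusted p = 0.264). Counts over the whole gene may include exons outside the altered part, so this level checks no single label.

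Upstream sequence was available for 7 of the 8 genes. The promoters of Sox1, Sox2 and Sox12 are printed because these genes had the widest spread among those with a promoter, at 59.5-fold between the highest and lowest RP tumour for Sox1 and 70.2-fold and 51.3-fold between RPC tumours for Sox2 and Sox12. The sequences are from RefSeq, build GRCm38.p6, from 250 bases before to 50 bases after the annotated start, read 5′ to 3′ on the strand of the gene. Capitals mark the matches, on either strand, to the core of the cyclic AMP response element TGACG or to the SOX motifs ACAATG and ACAAAG.
Sox1 promoter, chr8:12395269-12395568, plus strand: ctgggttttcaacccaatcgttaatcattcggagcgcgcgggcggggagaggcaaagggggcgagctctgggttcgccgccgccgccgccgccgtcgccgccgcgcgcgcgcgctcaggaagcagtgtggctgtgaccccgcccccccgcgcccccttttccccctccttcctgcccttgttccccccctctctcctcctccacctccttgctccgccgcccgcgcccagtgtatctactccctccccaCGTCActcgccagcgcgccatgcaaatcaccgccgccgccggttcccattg
Sox2 promoter, chr3:34649745-34650044, plus strand: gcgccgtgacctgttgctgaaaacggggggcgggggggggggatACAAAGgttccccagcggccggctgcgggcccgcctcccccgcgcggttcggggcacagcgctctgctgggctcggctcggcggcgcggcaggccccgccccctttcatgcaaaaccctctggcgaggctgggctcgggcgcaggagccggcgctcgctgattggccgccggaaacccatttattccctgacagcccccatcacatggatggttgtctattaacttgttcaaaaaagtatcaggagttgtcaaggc
Sox12 promoter, chr2:152397997-152398296, minus strand: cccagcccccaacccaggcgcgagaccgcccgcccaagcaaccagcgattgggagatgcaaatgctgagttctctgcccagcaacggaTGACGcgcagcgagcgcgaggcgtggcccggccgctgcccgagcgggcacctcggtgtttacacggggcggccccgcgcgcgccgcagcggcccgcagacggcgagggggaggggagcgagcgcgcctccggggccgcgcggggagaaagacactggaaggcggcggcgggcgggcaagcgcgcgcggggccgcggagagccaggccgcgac
The core TGACG, which is part of the site bound by CREB, a factor that recruits CREBBP, was in 20.8% of all 32851 promoters of this length. The full palindrome TGACGTCA was in 1.79% of them and in none of the 12 promoter windows of the 7 genes. ACAATG was in 12.6% and ACAAAG in 18.7% of all promoters. The Sox1, Sox2 and Sox12 windows held 37, 27 and 47 CpG dinucleotides, against a median of 7 over all promoters. The Sox4 and Sox11 windows held no match and 12 and 21 CpG dinucleotides, and the Sox5 window held 1 ACAATG and 3 CpG dinucleotides. Of the 6 Sox6 windows, 5 held at least 1 SOX motif and 1 held TGACG. A match describes these letters only and shows no binding.

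**Figure D1:**
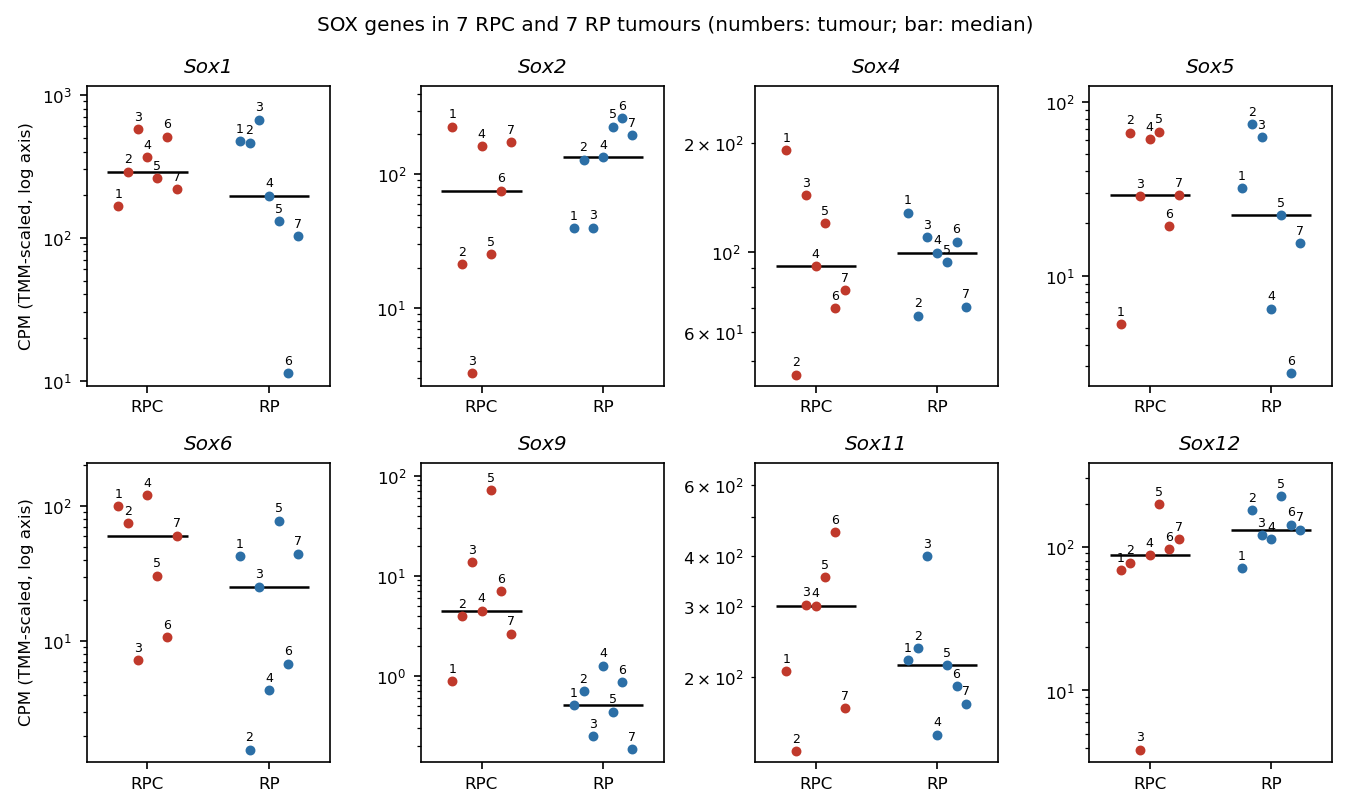
Level of each of the 8 SOX genes in CPM (vertical log axes) in 7 RPC tumours (red, left) and 7 RP tumours (blue, right), 1 point per tumour with its number and a bar at the median of the genotype. Sox9 was at or above 2.62 CPM in 6 RPC tumours and at or below 1.26 CPM in all RP tumours, while the other 7 genes spread over shared ranges.

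Across the set, 1 of the 8 genes, Sox9, was called between the genotypes and 7 were not. Over all 14804 genes tested, 2.21% were called by edgeR at an adjusted p under 0.05, 1.09% as higher and 1.12% as lower. Of the 8 genes, 6 had positive and 2 negative log2 fold changes, with a median of 0.25 against 0.0021 over all genes tested. All 8 passed the filter on low counts. The ranges of the genotypes overlapped for each of the 8, whereas 1.14% of all genes tested had ranges that did not overlap.

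Sox9 was higher in RPC tumours. Its level was 0.877 CPM at lowest, 4.46 CPM at the median and 71.9 CPM at highest in RPC tumours, against 0.183, 0.505 and 1.26 CPM in RP tumours. In RPC tumours it rested on 20 to 1327 reads per library, and in RP tumours on 3 to 32 reads. All but RPC tumour 1 lay above every RP tumour, and the ranges overlapped through that tumour alone. Mean levels were 14.9 ± 25.5 CPM in RPC tumours and 0.60 ± 0.377 CPM in RP tumours (SD, n = 7 each), or 4.60 ± 0.93 (SE) as log2 fold change in edgeR's quasi-likelihood fit, with a p of 0.0255 after Benjamini-Hochberg adjustment over all genes tested. Sox9 passed the filter on low counts through the RPC tumours.

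The size of the Sox9 difference depended on the tumours that stood apart. RPC tumour 5 had 71.9 CPM, RPC tumour 3 had 13.7 CPM and RPC tumour 6 had 6.96 CPM, the 3 highest values of the 14. The remaining RPC tumours had 0.877, 3.97, 4.46 and 2.62 CPM, of which 3 of 4 were above every RP tumour. Without RPC tumours 3, 5 and 6 the log2 fold change was 2.27 ± 0.56 (SE) and the edgeR call was lost (adjusted p = 0.161). Without RPC tumour 5 alone it was 3.14 ± 0.61 (SE), still called (adjusted p = 0.0312). Leaving out RPC tumour 3 or RP tumour 2, 5 or 6 also ended the call, at adjusted p of 0.0513, 0.0538, 0.0526 and 0.0575, with log2 fold changes of 4.62, 4.60, 4.54 and 4.67. A limma-voom fit gave 3.36 (adjusted p = 0.103), and the edgeR fit with tumour number as a block 3.39 (adjusted p = 0.0795).

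**Figure D2:**
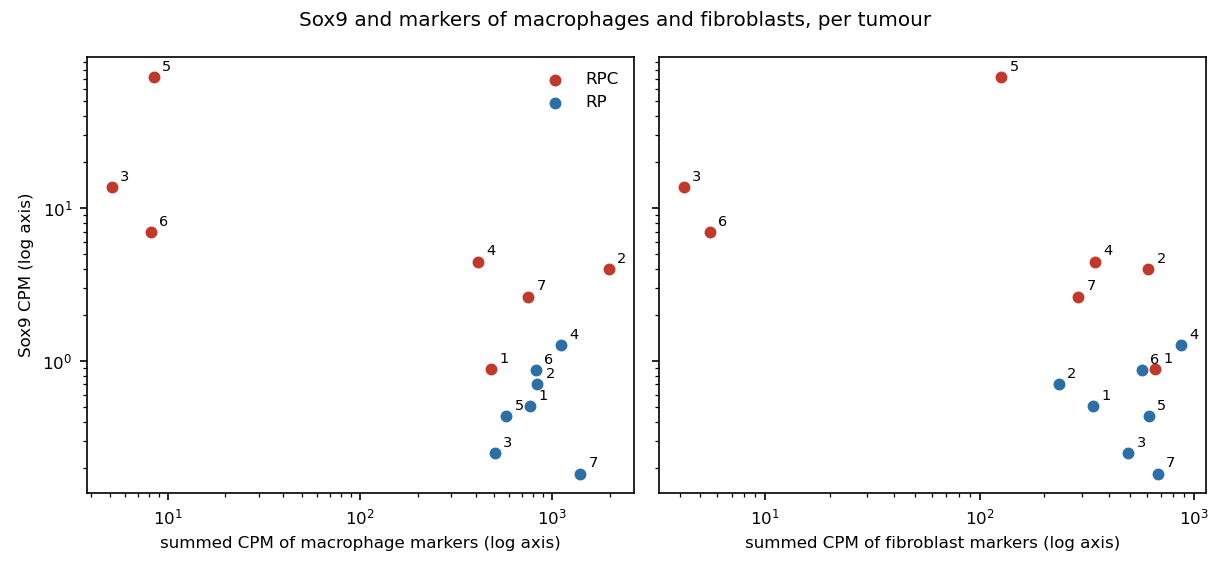
Sox9 level in CPM (vertical log axis) against the summed CPM of 9 macrophage markers (left, log axis) and 7 fibroblast markers (right, log axis), 1 point per tumour labelled with its number, RPC in red and RP in blue. RPC tumours 3, 5 and 6 combine the highest Sox9 levels with the lowest marker sums, and RPC tumours 2, 4 and 7 lie above all RP tumours at macrophage sums of at least 410 CPM and fibroblast sums of at least 288 CPM.

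Markers of macrophages and fibroblasts were lowest in the 3 tumours with the highest Sox9. Macrophage markers summed to between 5.12 and 1973 CPM in RPC tumours and between 503 and 1401 CPM in RP tumours, and fibroblast markers to between 4.18 and 654 CPM in RPC tumours and between 233 and 865 CPM in RP tumours. All listed markers of both types were in the files and tested, and 0 were called by edgeR (0 also at an unadjusted p under 0.05). Over all genes tested the shares were 2.21% and 21.3%. The low values of RPC tumours 3, 5 and 6 spread the RPC group widely, so the lack of calls does not show equal levels. T and NK cell and mural cell markers were low in the same 3 tumours too, at sums of 0.536 to 0.732 CPM and 4.60 to 5.04 CPM. Endothelial markers summed to 7.95 and 2.14 CPM in RPC tumours 3 and 6, but to 85.4 CPM in RPC tumour 5, above the 61.7 CPM of RPC tumour 4. The part of these cells in the Sox9 result was not tested. In a bulk sample, a larger share of cells with a gene and more RNA per cell cannot be told apart. Cell types known for Sox9 were also read. Markers of Schwann cells, 6 in number, summed to between 91.7 and 266 CPM in RPC tumours and between 122 and 330 CPM in RP tumours, with Sox10, the defining glial SOX gene, at 0 counts in 9 of 14 tumours. The cartilage genes Col2a1 and Acan were at or below 1.36 and 0.965 CPM in RPC tumours and at or below 8.80 and 0.414 CPM in RP tumours. RPC tumour 5, with the highest Sox9, had 91.7 CPM of summed Schwann markers, the lowest such sum of the 14. Of the 15 cartilage targets of SOX9 that were listed, it had 1.08 CPM of Col2a1 and 0.271 CPM of Acan, but the highest values of the 14 tumours for Hapln1 (35.8 CPM, against at most 6.70 in the others), Col11a1 (142 CPM, against at most 105) and Mia1 (12.8 CPM, against at most 8.71).

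The genes most like Sox9 over the 14 tumours were Gap43, which encodes a growth cone protein, Hrk, a pro-apoptotic BCL2-family gene, and Zfp521, a zinc finger gene. Likeness was the root mean square difference in log2 CPM after each gene was centred on its own mean, and it was 1.15, 1.18 and 1.22 log2 units for these genes, against a median of 2.18 over all genes compared. Gap43 ranged from 9.65 to 156 CPM in RPC tumours and from 1.84 to 12.6 CPM in RP tumours. Hrk ranged from 2.59 to 23.9 CPM in RPC tumours and from 0.244 to 3.34 CPM in RP tumours, and Zfp521 from 2.90 to 26.6 CPM in RPC tumours and from 0.829 to 3.61 CPM in RP tumours. These genes were picked for likeness to Sox9 over both genotypes, so their higher levels in RPC tumours follow in part from that choice.

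**Figure D3:**
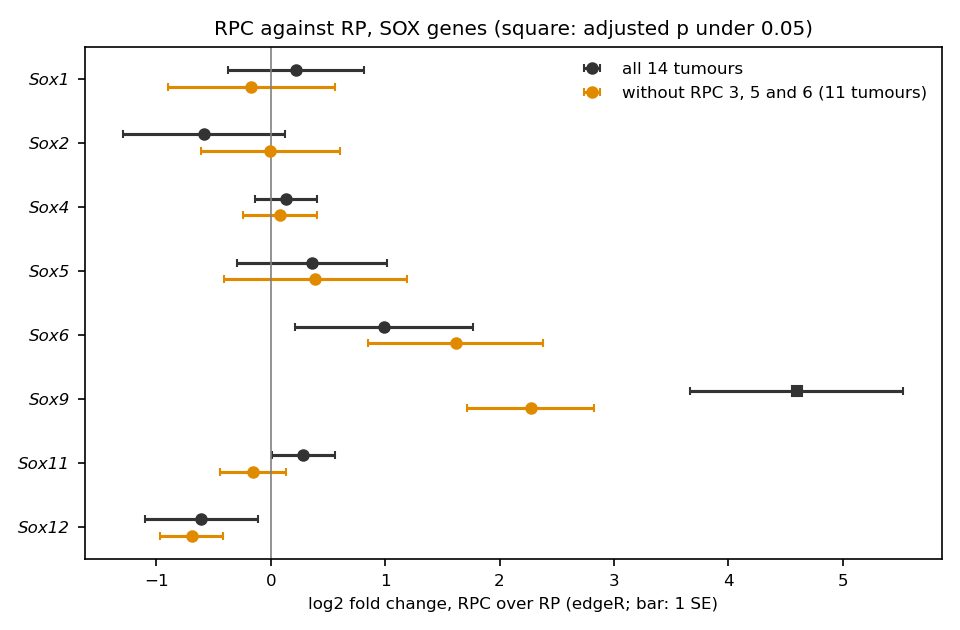
Log2 fold change of RPC over RP tumours (horizontal axis) with 1 SE for each SOX gene, from the edgeR fit over all 14 tumours (black) and without RPC tumours 3, 5 and 6 (orange); a square marks an adjusted p under 0.05. Sox9 alone is marked by a square, at 4.60 over all tumours, and the point without the 3 tumours is at 2.27.

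The SOXB1 genes Sox1 and Sox2 had the highest medians of the 8 per length of transcript, with ranges that overlapped those of other members. The Sox1 level was 166 CPM at lowest, 290 CPM at the median and 576 CPM at highest in RPC tumours, against 11.3, 197 and 669 CPM in RP tumours. RP tumour 6 was far below all other tumours, and the RPC values lay inside the RP range (by edgeR, log2 fold change 0.22 ± 0.60 SE with adjusted p = 0.852). The sign turned without RPC tumours 3, 5 and 6 (-0.17, adjusted p = 0.961) and without RP tumour 6 (-0.016, adjusted p = 0.988). The Sox2 level was 3.24 CPM at lowest, 75.2 CPM at the median and 227 CPM at highest in RPC tumours, against 39.5, 135 and 263 CPM in RP tumours. RPC tumours 2, 3 and 5 were below every RP tumour, and the other 4 RPC tumours were within the RP range. By edgeR its log2 fold change was -0.58 ± 0.71 SE over all tumours (adjusted p = 0.654) and -0.0053 ± 0.61 SE (adjusted p = 0.999) without the 3 tumours that stood apart.

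Sox1 and Sox2 differed in which tumours were high. The highest Sox1 levels were 576 CPM in RPC tumour 3, 510 CPM in RPC tumour 6 and 669 CPM in RP tumour 3, where Sox2 stood at 3.24, 75.2 and 39.9 CPM. The highest Sox2 levels were 227 CPM in RPC tumour 1, 228 CPM in RP tumour 5 and 263 CPM in RP tumour 6, where Sox1 stood at 166, 131 and 11.3 CPM. The root mean square difference between Sox1 and Sox2 was 2.80 log2 units, one of the widest of the 28 pairs, in which the values ran from 0.625 for Sox4 and Sox11 to 3.399 for Sox2 and Sox9. Sox2ot, a noncoding transcript whose gene spans Sox2, had 0.596 to 17.8 CPM in RPC tumours and 0.497 to 9.22 CPM in RP tumours (by edgeR, log2 fold change 0.28 ± 0.69 SE with adjusted p = 0.839). In the 3 RPC tumours with the lowest Sox2, Sox2ot was at 1.41, 1.36 and 0.596 CPM (tumours 2, 3 and 5).

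**Figure D4:**
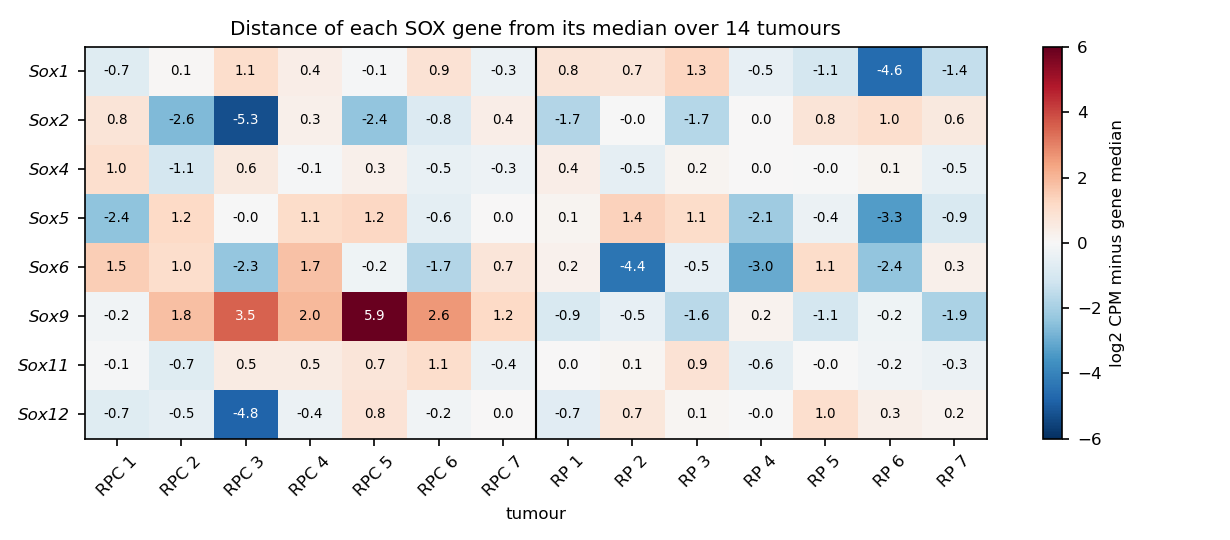
Distance of each SOX gene (rows) from its median over the 14 tumours in log2 CPM (red above, blue below), with RPC tumours left of the black line and RP tumours right of it. Sox9 is above its median in 6 of 7 RPC tumours, Sox2 and Sox12 fall furthest in RPC tumour 3, Sox1 and Sox5 in RP tumour 6 and Sox6 in RP tumour 2, and Sox4 and Sox11 move least.

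The SOXC genes Sox4 and Sox11 were the steadiest of the 8, with an SD of log2 CPM over the 14 tumours of 0.52 and 0.55, against 1.41 to 2.21 for the other 6. The Sox4 level was 45.8 CPM at lowest, 91.3 CPM at the median and 191 CPM at highest in RPC tumours, against 66.7, 99.5 and 128 CPM in RP tumours. RPC tumours 1 and 3 were above and RPC tumour 2 below every RP tumour (by edgeR, log2 fold change 0.13 ± 0.27 SE with adjusted p = 0.80). The value was 0.08 without the 3 tumours that stood apart (adjusted p = 0.957), and without RPC tumour 1 the sign turned (-0.075). The Sox11 level was 131 CPM at lowest, 301 CPM at the median and 458 CPM at highest in RPC tumours, against 144, 214 and 399 CPM in RP tumours. RPC tumour 6 was above and RPC tumour 2 below every RP tumour (by edgeR, log2 fold change 0.29 ± 0.28 SE with adjusted p = 0.575), and without RPC tumours 3, 5 and 6 the sign turned (-0.16, adjusted p = 0.887).

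Sox12 was far lower in RPC tumour 3 than in any other tumour. Its level was 3.87 CPM at lowest, 87.8 CPM at the median and 198 CPM at highest in RPC tumours, against 71.3, 132 and 225 CPM in RP tumours. RPC tumour 3 held 37 reads of it, and the next lowest RPC tumour had 68.6 CPM, just under the lowest RP tumour. All RPC values but that of RPC tumour 5 were under the RP median, but the edgeR log2 fold change of -0.61 ± 0.50 SE did not pass (adjusted p = 0.498), nor did -0.69 ± 0.27 SE (adjusted p = 0.337) without the 3 tumours that stood apart. The genes most like Sox12 were Runx3, a RUNX transcription factor gene, Rgl3, a Ral guanine nucleotide exchange factor gene, and Zfp105, a zinc finger gene, with differences of 0.415, 0.640 and 0.679 log2 units against a median of 1.47. Most of the Sox12 spread behind this likeness came from RPC tumour 3. The SD of log2 CPM among RPC tumours was 1.83 with it and 0.543 without it. Runx3 ranged from 1.05 to 37.8 CPM in RPC tumours and from 29.8 to 50.6 CPM in RP tumours.

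**Figure D5:**
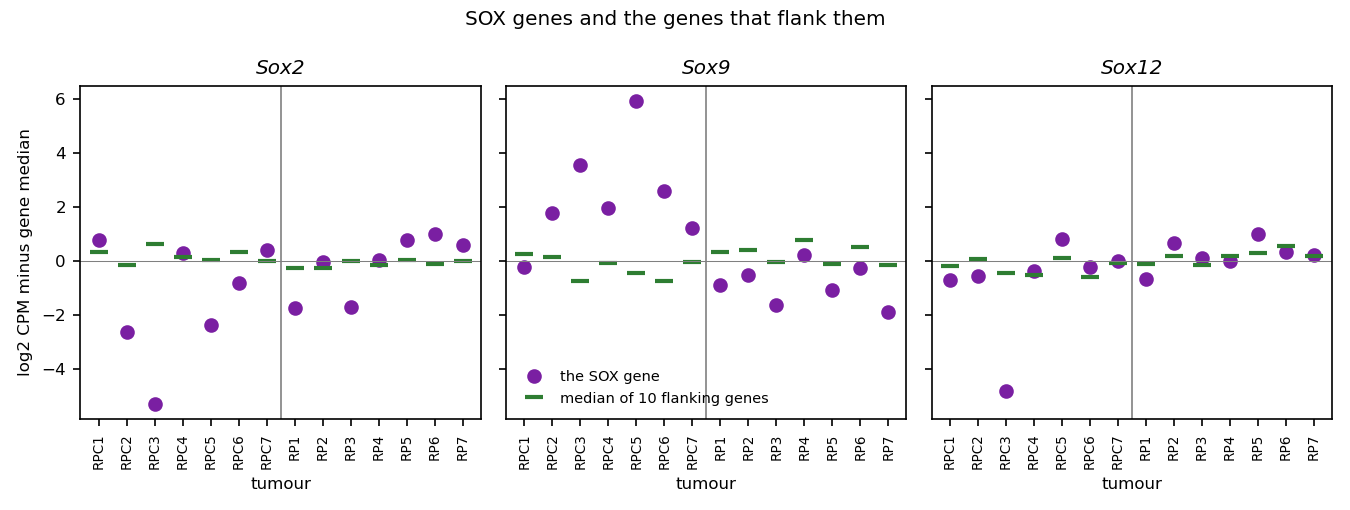
Log2 CPM minus the median of the gene over 14 tumours (vertical axis) in each tumour (RPC left of the grey line, RP right of it) for Sox2, Sox9 and Sox12 (purple points) and the median of the 10 tested genes that flank each (green bars). The flanking medians lie between -0.74 and 0.77 and the SOX genes between -5.29 and 5.93. A median over 10 genes varies less than 1 gene, and single flanking genes, not drawn, lay between -6.60 and 3.42. Sox2ot, whose gene spans Sox2, is among the flanks of Sox2.

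Genes on either side of Sox2, Sox9 and Sox12 were read in the same tumours. Flanks were the nearest 5 tested genes on each side in the RefSeq order of GRCm38.p6, a comparison chosen after the values were seen. In RPC tumour 3, Sox2 lay 5.29 log2 units under its median while the median of its 10 flanking genes lay 0.62 above. The lowest of these, at -1.71, was Sox2ot, whose gene spans Sox2, and the other flanks lay between -0.17 and 0.95. Sox12 lay 4.83 under its median in RPC tumour 3 and its flanking median 0.44 under, with single flanks between -6.60 and 0.41. Among the flanks of Sox12, Zcchc3 lay 6.60 under its own median in RPC tumour 3 and 5.84 under it in RPC tumour 6, where Sox12 was 0.23 under its median. In RPC tumour 5, Sox9 lay 5.93 above its median and its flanking median 0.44 under, with single flanks between -2.43 and 1.70. The noncoding transcript 2610035D17Rik, which flanks Sox9, was below its median in RPC tumours 2 to 7, at -2.37 to -0.88 log2 units, and at 0.10 in RPC tumour 1 and -0.10 to 0.67 in RP tumours.

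The SOXD genes Sox5 and Sox6 spread widely in both genotypes. The Sox5 level was 5.26 CPM at lowest, 29.1 CPM at the median and 67.4 CPM at highest in RPC tumours, against 2.73, 22.4 and 74.7 CPM in RP tumours. The RPC values lay inside the RP range (by edgeR, log2 fold change 0.36 ± 0.66 SE with adjusted p = 0.776), and without the 3 tumours that stood apart the value was 0.39 (adjusted p = 0.90). The Sox6 level was 7.21 CPM at lowest, 60.2 CPM at the median and 120 CPM at highest in RPC tumours, against 1.58, 25.3 and 78.0 CPM in RP tumours. RPC tumours 1 and 4 were above every RP tumour (by edgeR, log2 fold change 0.99 ± 0.78 SE with adjusted p = 0.48). The 3 RPC tumours that stood apart had the lowest Sox6 of their genotype, at 7.21 to 30.5 CPM, and without them the RPC values ran from 60.2 to 120 CPM and the log2 fold change was 1.62 (SE 0.76, adjusted p = 0.433). Csrnp3, a gene for a nuclear protein, was most like Sox6, at a difference of 0.750 log2 units against a median of 1.90.

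The spread within a genotype was compared without a test, and in part it rested on single tumours. The SD of log2 CPM of Sox1 was 0.647 among RPC tumours and 2.004 among RP tumours, and that of Sox2 was 2.19 and 1.14. Sox9 had an SD of 1.94 among RPC tumours and 0.757 among RP tumours, or 0.994 among RPC tumours once RPC tumours 3, 5 and 6 were left out. For Sox12 the SD was 1.83 among RPC tumours and 0.525 among RP tumours, but without RPC tumour 3 the RPC value was 0.543 and without RPC tumours 3, 5 and 6 it was 0.311, under that of RP tumours. The same omission of 3 tumours gave RPC values of 0.495 for Sox1, 1.57 for Sox2, 0.851 for Sox4, 1.68 for Sox5, 0.441 for Sox6 and 0.509 for Sox11. The RP values were 0.343 for Sox4, 1.70 for Sox5, 2.04 for Sox6 and 0.463 for Sox11. Leaving out these tumours for the spread was chosen after seeing the data. Of all pairs, Sox4 and Sox11 had the smallest root mean square difference over the 14 tumours, 0.625 log2 units. Both genes spread little (SD 0.52 and 0.55), which keeps that difference small whether or not they move together. The next smallest were Sox1 with Sox5, at 1.06 log2 units, and Sox2 with Sox12, at 1.21. Sox1 and Sox5 were both lowest in RP tumour 6, and Sox2 and Sox12 were both lowest in RPC tumour 3. Sox9 and Sox12 had their highest RPC values together in tumour 5, at 71.9 and 198 CPM, where Sox2 stood at 25.1 CPM.

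Levels of different genes were compared per kilobase of the longest GENCODE M21 protein-coding transcript. In RPC tumours the medians in CPM per kilobase were 59.9 for Sox1, 36.6 for Sox2, 36.2 for Sox11, 19.7 for Sox12, 19.0 for Sox4, 6.94 for Sox6, 4.01 for Sox5 and 1.08 for Sox9. The corresponding values in RP tumours were 65.5 for Sox2, 40.7 for Sox1, 29.6 for Sox12, 25.7 for Sox11, 20.7 for Sox4, 3.09 for Sox5, 2.92 for Sox6 and 0.122 for Sox9. Every pair of neighbours in the RPC order overlapped in range, so neighbouring ranks were not resolved. Sox1, at 34.4 to 119, did lie wholly above Sox6, Sox5 and Sox9, at most 13.9, 9.30 and 17.4. In RP tumours the only neighbours with a break between them were Sox4, at 13.9 to 26.8, and Sox5, at 0.377 to 10.3. In both genotypes Sox9 had the lowest median per length of the 8 genes. The SOXB1 and SOXC genes have 1 exon in this annotation, while Sox9 has 3, Sox5 has 15 and Sox6 has 16, and the 8 genes lie on 8 different chromosomes. Exons of Sox4 and Sox5 overlap Gm26735 and Sox5os1 on the opposite strand, and an exon of Sox1 overlaps Gm25239 on its own strand. How strand was used in counting is not given in the sources used here, so such reads cannot be told apart.

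Among the other 12 SOX genes, 5 passed the filter on low counts and 0 were called by edgeR (1 at an unadjusted p under 0.05, as were 21.3% of all genes tested, and 0 by DESeq2 and limma-voom), with log2 fold changes from -1.20 to -0.04 and a median of -0.75. Sox13, the third SOXD gene, had 4.39 CPM at lowest, 40.7 CPM at the median and 64.2 CPM at highest in RPC tumours, against 30.8, 67.8 and 113 CPM in RP tumours. All 7 RPC values were under the RP median (by edgeR, log2 fold change -1.01 ± 0.47 SE with adjusted p = 0.228). Sox21, a SOXB2 gene, averaged 9.21 ± 8.08 CPM in RPC tumours and 21.1 ± 14.8 CPM in RP tumours (SD, n = 7 each), which by edgeR was a log2 fold change of -1.20 ± 0.70 SE with adjusted p = 0.34. The SOXF genes Sox7, Sox17 and Sox18, which are expressed in endothelium, had log2 fold changes of -0.75, -0.04 and -0.08, and 8 endothelial markers summed to between 2.14 and 352 CPM in RPC tumours and between 105 and 306 CPM in RP tumours. In RPC tumour 6, where that sum was lowest, the 3 genes were at 0.0893, 0.0893 and 0 CPM. In RPC tumours 3 and 5, with endothelial sums of 7.95 and 85.4 CPM, Sox18 was at 7.84 and 7.15 CPM, above the RP median of 5.55 CPM, and Sox17 at 2.09 and 0 CPM. Without RPC tumours 3, 5 and 6 the log2 fold changes of Sox7, Sox17 and Sox18 were -0.034, 0.60 and 0.18. Sox3, Sox8, Sox10, Sox14, Sox15, Sox30 and Sry did not pass the filter, and Sry had 0 counts in all 14 libraries, which allows up to 3 counts of 211061031, or 0.0142 CPM, counting error only.

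Genes known to work with the SOX factors, or under them, were read from 4 lists. Of 37 listed genes, 36 were in the files, 24 were tested and 0 were called by edgeR in either direction (6 at an unadjusted p under 0.05, 2 by DESeq2 and 0 by limma-voom). Over all genes tested, 21.3% had such an unadjusted p and DESeq2 called 9.67%. Of 10 genes of SOX9-positive distal lung progenitors, 8 had negative values, with a median of -0.56. The 2 positive ones were Id2 and Shh, at 0.998 and 0.126 on the log2 fold scale (adjusted p = 0.275 and 0.946 by edgeR). Id2 was highest in RPC tumours 3, 5 and 6, at 274, 344 and 376 CPM. The remaining RPC tumours had 54.5 to 94.5 CPM of Id2, and RP tumours 19.9 to 147 CPM. The same 3 tumours had the highest Sox9, and a link was not tested. The Id2 value without them is not given. Etv4, an ETS factor induced by FGF signalling in the lung bud, averaged 2.07 ± 1.75 CPM in RPC tumours and 13.2 ± 13.3 CPM in RP tumours (SD, n = 7 each), which by edgeR was a log2 fold change of -2.69 ± 0.82 SE with adjusted p = 0.0894, and passed without RP tumour 3 (-2.90, adjusted p = 0.0366). Nkx2-1, the lung lineage factor, was at 523 ± 179 CPM in RPC tumours and 529 ± 154 CPM in RP tumours (SD, n = 7 each), with log2 fold change -0.014 and adjusted p = 0.979 by edgeR. Foxp1 and Mycn had log2 fold changes of -0.56 and -2.70 (edgeR adjusted p = 0.187 and 0.166), the Mycn value with 1 RP tumour at 522 CPM.

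Of 15 cartilage targets of SOX9, 8 were tested, 4 with positive and 4 with negative values and a median of 0.25. Col9a2, a collagen IX chain gene, averaged 245 ± 329 CPM in RPC tumours and 36.0 ± 25.7 CPM in RP tumours (SD, n = 7 each), which by edgeR was a log2 fold change of 2.76 ± 0.80 SE with adjusted p = 0.0774. Its highest value, 931 CPM, was in RPC tumour 1, the RPC tumour with the lowest Sox9, and RPC tumour 5 had 25.7 CPM. Col9a3, Col11a2, Acan, Comp, Matn1, Matn3, Matn4 and Lect1 were also lower in RPC tumour 5 than in RPC tumour 1. Col2a1, Col9a1, Hapln1, Col11a1 and Mia1 were higher in RPC tumour 5. In RPC tumours 1 and 5, Matn1 had 2 and 0 reads, Matn3 2 and 1, and Col9a1 8 and 12, so such orders are uncertain. These orders compare single tumours and were not tested. Hapln1, which encodes a cartilage link protein, was at 0.044 and 35.8 CPM in RPC tumours 1 and 5. The collagen XI chain gene Col11a1 was at 10.9 and 142 CPM, and Mia1, a secreted cartilage protein gene, at 1.10 and 12.8 CPM. In RP tumours, where Sox9 was at or below 1.26 CPM, Col11a1 reached 105 CPM and Mia1 8.71 CPM. The log2 fold changes of Hapln1, Col11a1 and Mia1 between genotypes were 1.48, 0.56 and -0.065 (edgeR adjusted p = 0.47, 0.759 and 0.972). They were -1.49, -0.54 and -1.91 without RPC tumours 3, 5 and 6. These 3 genes were picked out after their values were seen. Col9a3, for another chain of the same collagen, was at 1.06 ± 0.46 SE on the log2 fold scale (edgeR adjusted p = 0.202). Of 3 tested targets of SOX4 and SOX11, Dcx, a microtubule protein gene of migrating neurons, was at 2.56 ± 0.97 SE on the same scale (edgeR adjusted p = 0.153) and at 1.19 without RPC tumours 3, 5 and 6 (adjusted p = 0.691), the tubulin gene Tubb3 at 0.97 ± 0.81 SE (adjusted p = 0.506, and 0.15 without those 3 tumours) and the TEA-domain factor gene Tead2 at -0.41 ± 0.73 SE (adjusted p = 0.771). Of 8 partners of SOX2, 3 were tested, and the chromatin remodeller gene Chd7 had the smallest p (by edgeR, log2 fold change 0.42 ± 0.26 SE with adjusted p = 0.373).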

How the data were processed

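RNA was sequenced from 14 primary tumours, 7 RPC and 7 RP. The deposited values are raw read counts per gene symbol. The submitters' processing notes name mm9 as the build, HTSeq 0.6.1, TopHat2 2.0.12 and, as a further tool, bcl2fastq 1.8.2. For settings, annotation and strand: not given in the sources used here. The count step leaves out reads with more than 1 alignment. The 5 rows that name no gene were dropped. They held 15.1% to 20.5% (no feature), 8.44% to 11.2% (not unique) and 0.883% to 1.09% (ambiguous) of each library.

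In edgeR 4.0.16 (R 4.3.3), counts went through filterByExpr (minimum count 10, minimum total 15), TMM scaling and the quasi-likelihood test of RPC over RP, without covariates, with Benjamini-Hochberg adjustment over all genes tested and a threshold of 0.05. Log2 CPM used a prior count of 2. An SE is the absolute log2 fold change over the square root of F. The fit was tested on simulated counts, drawn independently for each gene and without a group of tumours that stood apart. That test does not cover data with tumours such as RPC tumours 3, 5 and 6. Alternatives used DESeq2 1.42.0, limma-voom (limma 3.58.1), other scaling and filters, a block for the tumour number, and fits without single tumours or RPC tumours 3, 5 and 6. No pair of libraries within a genotype agreed within sampling noise (chi-square per degree of freedom at least 62.1 over 42 pairs).

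The members, gene lists and the rule for named genes were chosen with earlier results of these data known. The rule named all SOX genes, up to 4 genes of each list with the smallest p and 2 with the highest CPM, and, for members with an SD of log2 CPM of at least 1, the most similar genes among those with a mean of at least 1 CPM, leaving out predicted genes. Not all names the rule gave are printed. Gene order for the flanks came from RefSeq GRCm38.p6, which matched 14708 of 14804 tested genes by symbol or synonym.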

Additional observations from a re-analysis of the deposited data

Results flagged for a closer look

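Sox12 in RPC tumour 3, at 3.87 CPM, lay far below the other 6 RPC tumours, of which the next lowest had 68.6 CPM. On the log2 scale the gap to the nearest tumour was 0.728 of the whole range of the genotype. The check covered 16 groups of 7 tumours (8 genes in each genotype) and picked out 1, where chance alone picks out about 1 in 20. RPC tumour 3 is among the 3 tumours with low macrophage and fibroblast markers; whether that bears on its Sox12 level was not tested.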

How the results depend on the processing

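Of 252 values recomputed under alternatives, 217 kept their direction and their side of the threshold or, for counts, stayed within 1.5 times, and 4 changed sign, all without a call before or after. These were Sox1 without RPC tumours 3, 5 and 6 (-0.17) and without RP tumour 6 (-0.016), Sox4 without RPC tumour 1 (-0.075) and Sox11 without RPC tumours 3, 5 and 6 (-0.16). Over 21 alternatives the log2 fold change of Sox9 ran from 2.27 to 4.90 and its adjusted p from 2.17e-06 (DESeq2) to 0.161, with a call in 14. The call was lost with limma-voom (3.36), without RPC tumours 3, 5 and 6 (2.27) and with the tumour number as a replicate block (3.39, adjusted p = 0.0795), so that 0 of the 8 genes were called in each. Fits without 1 tumour gave Sox1 -0.016 to 0.57, Sox4 -0.075 to 0.26, Sox9 3.14 to 4.90 (adjusted p 0.0159 to 0.0575) and 0 or 1 called SOX genes of the 8. Same-numbered tumours did not deviate together in every pair (correlations of -0.054 to 0.32, 3 of 7 tumours best matched to their own number, a hint from the data and not the design), so the number was not taken as a pairing. The count over all genes was 327, and 1431 with DESeq2, 503 with limma-voom, 74 with the replicate block, 11 without RPC tumours 3, 5 and 6, and 51 to 898 without 1 tumour. The partner and target lists gave 2 calls with DESeq2 (Col9a2 and Etv4) and 0 to 1 without 1 tumour. Why these counts moved was not tested. The few reads of Sox9 in RP tumours, 3 to 32 per library, limit the precision of its fold change.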

Other observations

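Sox3, an X-linked SOXB1 gene outside the 8, was high in single tumours of both genotypes. It was at 14.7 CPM in RPC tumour 3, 14.3 CPM in RPC tumour 6 and 23.6 CPM in RP tumour 2, and at or below 0.67 CPM in the other 11. It did not pass the filter on low counts, and it was picked out after its values were seen.

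The genes most like Sox1 were Enah, an actin regulator gene, Tmem229a and Zfp286, with root mean square differences of 0.571, 0.640 and 0.766 log2 units against a median of 1.54. Enah ranged from 50.5 to 169 CPM in RPC tumours and from 3.19 to 116 CPM in RP tumours. Those most like Sox2 were Cd59a, Ror2 and Fam83f, at 0.942, 0.959 and 0.968 against a median of 1.81.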
